A study of Homo sapiens with 6 samples.

Results

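The 10 genes MDM2, CDK4, HMGA2, FRS2, YEATS4, CPM, TSPAN31, OS9, CCT2 and LEMD3 lie in the 12q13-15 segment of chromosome 12 that is amplified in many liposarcomas, and their transcripts were followed in SW872 cells with and without Apatinib. They were taken by symbol from the deposited counts, which list 57773 genes, and each symbol matched 1 row. SW872 is an established human liposarcoma cell line, here a single line grown in RPMI-1640 with 10% FBS. The Apatinib group was 3 replicates given 18 μM of Apatinib, an inhibitor of VEGFR-2 and other receptor tyrosine kinases, for 24 h. The control group was 3 replicates labelled as controls, with no treatment or vehicle named. The labels do not say which of the RNA samples came from separate cultures, although the methods call them biological replicates, so the p values measure the spread between these samples. DNA copy number was not measured, so the values below are RNA levels and say nothing of whether the segment is amplified in this line.

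The segment carries a pair of best-known oncogenes. MDM2 is a ubiquitin ligase that sends proteins of the growth-arrest response to the proteasome, and its own gene is induced by DNA damage. CDK4 is a kinase that, with a D-type cyclin, phosphorylates RB and lets cells pass from G1 into S phase. Around them lie HMGA2, a chromatin architecture protein, FRS2, an adaptor of the FGF receptors, YEATS4, a reader subunit of chromatin complexes, and LEMD3, an inner nuclear membrane protein. OS9 is a lectin of ER-associated degradation, CCT2 a subunit of the CCT chaperonin, TSPAN31 a tetraspanin and CPM a membrane carboxypeptidase. Levels are given as normalised counts, which are counts scaled to the TMM library size in the unit usually written CPM, and as FPKM. Below, CPM means the gene only.

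Total counts ranged from 17043314 to 22067558 per replicate. In the edgeR quasi-likelihood test, genes were called when the FDR was below 0.05 and the log2 fold change (log2FC, Apatinib over control) exceeded 0.5 in either direction. These limits are those of the study's methods, and 1866 of 16290 tested genes (11.5%) were called, 973 higher (5.97%) and 893 lower (5.48%) with Apatinib. The split depended on the fit, with 192 higher and 83 lower without control replicate 1, 215 and 85 without control replicate 2, 523 and 272 without Apatinib replicate 1, and 1102 and 1492 without control replicate 3. The replicates were unevenly spaced: the mean chi-square per gene was 2.27 between control replicates 1 and 2, and 22.4 and 22.9 between each of them and control replicate 3, where sampling noise alone gives about 1. Between the Apatinib replicates it was 44.5 (1 and 2), 18.2 (1 and 3) and 34.3 (2 and 3). Mesenchymal markers were all tested (8 of 8), with a summed level of 5735 to 5933 normalised counts in the control group and 6909 to 8374 in the Apatinib group. The adipocyte markers FABP4, ADIPOQ and CEBPA had 0 counts in every replicate, so these genes of mature fat cells were not detected. PLIN1, a lipid droplet protein of fat cells, had 14 to 30 counts per replicate and was not called (log2FC 0.60, edgeR FDR = 0.225). PPARG, the regulator of fat cell formation, was at 50.0 to 64.2 normalised counts over the 6 replicates, and LPL, lipoprotein lipase, was called higher (log2FC 0.84, edgeR FDR = 0.0237), a call lost without control replicate 1 and without control replicate 2. The 8 adipocyte markers together reached 61.4 to 63.0 normalised counts in the control group and 65.6 to 89.5 with Apatinib. None of the 4 leukocyte markers passed the filter on low counts, and the epithelial markers and the 3 endothelial markers with a row (PECAM1 was not used) summed to at most 4.21 and 4.41 normalised counts. Both tested endothelial markers were called, VWF higher and CDH5 lower, and neither call held without control replicate 1 or control replicate 2. The summed level of 6 proliferation markers was 2597 to 3013 normalised counts in the control group and 1058 to 2063 in the Apatinib group. Fewer cycling cells and less RNA per cell cannot be told apart in such bulk samples, and the part of this shift in the results below was not tested.

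All 10 genes passed the filter and none was called with Apatinib. This was 0 of 10 against 11.5% of all tested genes, and it was also 0 with the limit on the fold change removed (12.9% of all tested genes). With DESeq2 it was 0 of 9 (14.2% of all genes it tested), since CPM was given no FDR there. At an unadjusted p under 0.05, edgeR gave 3 of the 10 (TSPAN31, MDM2 and CCT2), against 30.6% of all tested genes. In 4 of the 10 (TSPAN31, LEMD3, MDM2 and CCT2), the 2 groups did not overlap, against 33.2% of all tested genes. TSPAN31 was the 1 gene of these that was higher with Apatinib (17.5% of all tested genes), and 3 were lower (15.7%). The median log2FC of the 10 genes was -0.22, beside 0.0028 over all tested genes, with 4 values above 0 and 6 below.

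**Figure D1:**
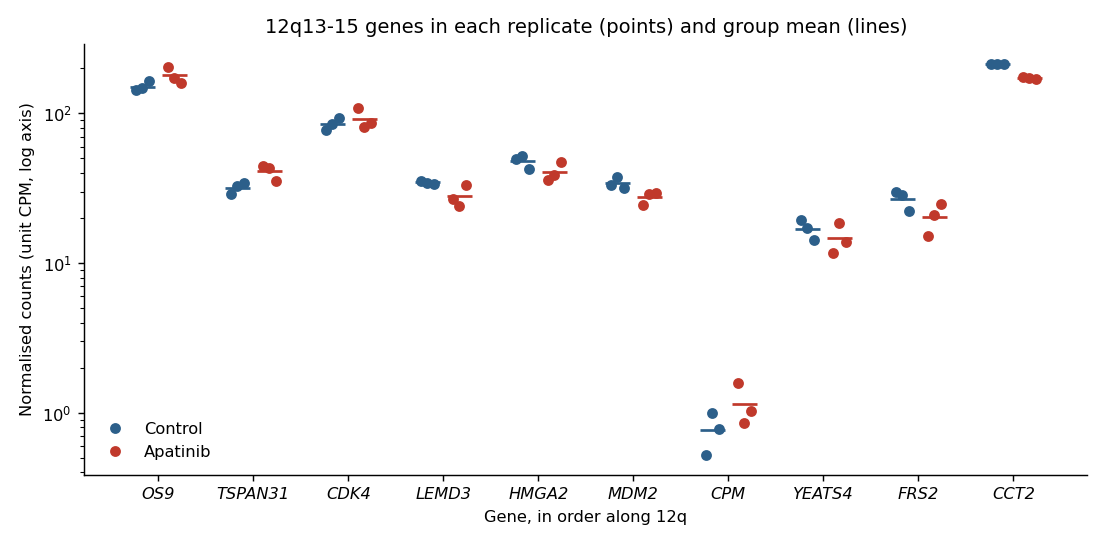
Normalised counts (log axis) of the 10 genes, ordered by position along 12q, in 3 control (blue) and 3 Apatinib (red) replicates, with lines at the group means. The groups are separate in TSPAN31, LEMD3, MDM2 and CCT2, and the 3 replicates of CCT2 lie closest together.

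The levels of the 10 genes were ordered on the FPKM scale, which divides by transcript length and so allows genes to be compared. OS9, CCT2 and CDK4 were the highest, and their order differed between the groups. In the control group CCT2 led with 74.8 ± 3.34 FPKM, above every value of OS9 (64.5 ± 2.30) and CDK4 (62.4 ± 4.67; SD, n = 3 each). With Apatinib CCT2 was the lowest of the 3 at 60.8 ± 1.92 FPKM, below every value of OS9 (79.3 ± 7.27) and CDK4 (67.2 ± 5.83; SD, n = 3 each). OS9 and CDK4 overlapped in both groups. Means over all 6 replicates, which mix the groups, were used for the order from here on, and CDK4 by that mean stood above 95.5% of the tested genes. TSPAN31 followed with 16.1 ± 2.57 FPKM (SD, n = 6), below every value of CDK4 and above every value of the genes beneath it.

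YEATS4, HMGA2, MDM2, LEMD3 and FRS2 came next. YEATS4 and HMGA2 had 8.05 ± 1.68 and 7.94 ± 1.16 FPKM (SD, n = 6), and their values overlapped. MDM2 had 4.84 ± 0.724 FPKM (SD, n = 6), with every replicate below HMGA2 in the same sample, and stood above 44.0% of the tested genes, whose median was 6.16 FPKM. LEMD3, with 4.74 ± 0.775 FPKM (SD, n = 6), could not be separated from MDM2, and FRS2 was lower than LEMD3 in each of the 6 samples at 3.08 ± 0.763 FPKM (SD, n = 6). MDM2 RNA was thus below the median transcript of this line.

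CPM, the membrane carboxypeptidase gene, was near the floor at 0.174 ± 0.105 FPKM (SD, n = 6), above 2.14% of the tested genes. It had 27, 15 and 18 counts with Apatinib and 9, 18 and 17 counts in the control group. The transcript length implied by its counts and FPKM ran from 3106 to 9165 bases between samples, a ratio of 2.95, whereas for the other 9 genes this ratio was at most 1.17. Its counts and its FPKM thus disagreed between samples more than those of the others.

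**Figure D2:**
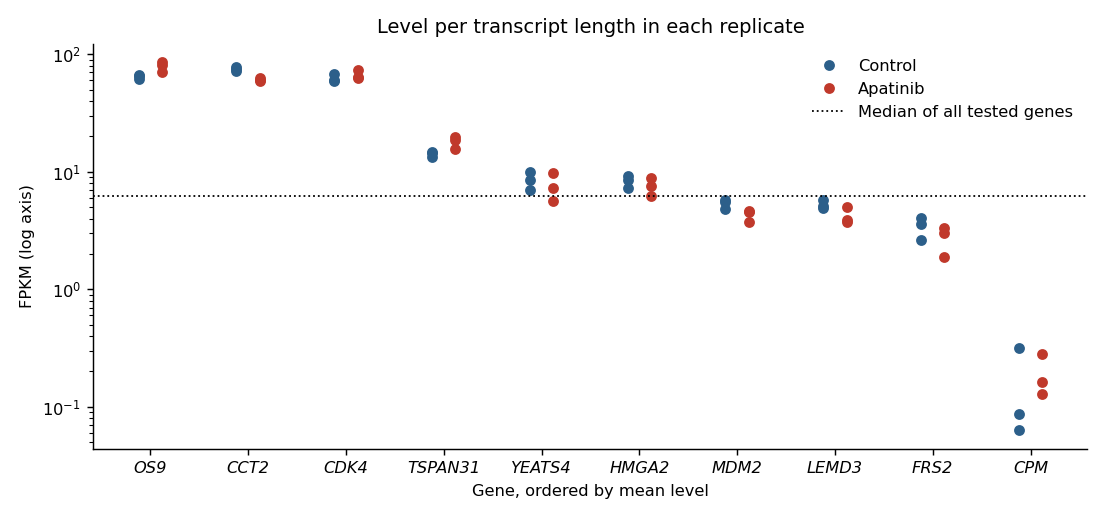
FPKM (log axis) of the 10 genes in each control (blue) and Apatinib (red) replicate, ordered by mean level, with the median of all tested genes (6.16 FPKM) dotted. OS9, CCT2 and CDK4 are near the top, with CCT2 the highest of them in the control group and the lowest with Apatinib, MDM2 lies just below the dotted line and CPM lies far beneath it.

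CDK4, the kinase of the segment, had the estimate closest to 0. In the order of the replicate numbers, used throughout, it had 109, 80.6 and 86.4 normalised counts with Apatinib, and the controls had 77.8, 84.7 and 92.9. Only Apatinib replicate 1 stood above all controls, and the groups overlapped. Its log2FC was 0.11 (standard error 0.140, 95% interval -0.20 to 0.42, edgeR FDR = 0.639), so changes of up to 0.42 upward or 0.20 downward were within the interval. Without Apatinib replicate 1 its direction turned, to -0.03, and without Apatinib replicate 2 it was 0.20. In the GENCODE 29 annotation, 43.2% of the annotated exon bases of CDK4 are shared with TSPAN31 on the opposite strand, and whether the counting used strand is not given in the sources used here.

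TSPAN31, which meets CDK4 tail to tail, had the highest log2FC of the 10 apart from the barely detected CPM. It was at 44.6, 43.1 and 35.6 normalised counts with Apatinib and at 28.8, 32.6 and 34.5 in the control group. Every Apatinib replicate was above every control, though Apatinib replicate 3 exceeded control replicate 3 by little. Its log2FC was 0.36 (standard error 0.138, edgeR FDR = 0.102), with an FDR of 0.0611 without Apatinib replicate 3 and 0.374 without control replicate 1. Of the annotated exon bases of TSPAN31, 25.4% are shared with CDK4 on the opposite strand.

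The promoters of CDK4 and MDM2 are shown because these are the named oncogenes of the segment and their estimates lay on opposite sides of 0. RefSeq promoters were found for 9 of the 10 genes, and each sequence is the stretch from 250 bases before to 50 bases after the annotated start in the build GRCh38.p14, whereas the build named for the deposited files is hg19. CDK4 is at chr12:57752261-57752560 on the minus strand and MDM2 is at chr12:68807922-68808221 on the plus strand. Capitals mark matches, on either strand, of the E-box CACGTG, the GC box GGGCGG, the CCAAT box CCAAT and the CHR element TTTGAA.
CDK4 promoter: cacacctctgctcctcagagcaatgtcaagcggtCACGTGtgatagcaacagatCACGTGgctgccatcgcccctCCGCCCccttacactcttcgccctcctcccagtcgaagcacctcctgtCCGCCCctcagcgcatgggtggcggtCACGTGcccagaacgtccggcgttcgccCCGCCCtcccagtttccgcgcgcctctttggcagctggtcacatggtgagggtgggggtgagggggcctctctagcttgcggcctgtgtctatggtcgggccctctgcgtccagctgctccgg
MDM2 promoter: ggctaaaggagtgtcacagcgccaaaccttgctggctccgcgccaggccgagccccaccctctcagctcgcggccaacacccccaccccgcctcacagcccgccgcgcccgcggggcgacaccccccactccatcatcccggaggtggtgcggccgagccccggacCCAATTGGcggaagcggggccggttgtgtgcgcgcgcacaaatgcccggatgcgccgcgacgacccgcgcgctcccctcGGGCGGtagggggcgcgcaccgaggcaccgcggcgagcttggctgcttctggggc

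The CDK4 promoter held 3 E-boxes and 3 GC boxes and no CCAAT box. An E-box occurs in 7.26% of the 35116 promoters of this length, a GC box in 45.0%, a CCAAT box in 34.6% and a CHR element in 15.2%. The MDM2 promoter held 1 GC box and 2 overlapping CCAAT matches, and no E-box or CHR element. MDM2 is known to have a further, inducible promoter in its first intron, which a window around this upstream start need not include. These are matches of letters and not measured binding.

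MDM2, the ubiquitin ligase, was lower in each Apatinib replicate than in any control, by a small margin. It was at 24.5, 28.8 and 29.5 normalised counts with Apatinib and at 33.1, 37.6 and 31.6 in the control group, or 27.6 ± 2.74 against 34.1 ± 3.10 (SD, n = 3 each). Its log2FC was -0.30 (standard error 0.136, 95% interval -0.60 to -0.0054), and the edgeR FDR of 0.157 did not pass. Leaving out single replicates gave values between -0.35 and -0.22.

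Among the partners of MDM2, 0 of 10 tested genes were called by edgeR (11.5% of all genes), 1 had an unadjusted p under 0.05 (30.6% of all genes), and their median log2FC was 0.03. MDM4, the close relative of MDM2 that binds it, had a log2FC of -0.09 (edgeR FDR = 0.714), and CDKN2A, whose ARF product restrains MDM2, had 0.32 (edgeR FDR = 0.241). NPM1, a nucleolar protein that can bind MDM2, had the smallest p on the list, at -0.43 (edgeR FDR = 0.0559).

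MDM2 is among the genes induced by DNA damage. Of 23 others tested, 3 were called, a share near the 11.5% of all genes, with 2 higher (5.97% of all genes) and 1 lower (5.48%), and the median log2FC was 0.04. CDKN1A, which encodes the CDK inhibitor p21, rose from 10.5 ± 0.730 to 17.3 ± 4.13 normalised counts (SD, n = 3 each; log2 fold change 0.72, edgeR FDR = 0.0308). PHLDA3, which binds phosphoinositides and opposes AKT, rose with a log2FC of 0.74 (edgeR FDR = 0.0227). PPM1D, a phosphatase that ends the DNA damage response, fell by 0.59 on the log2 scale (edgeR FDR = 0.0393). None of the 3 was called without control replicate 1, and the count on the list was then 0.

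Of the genes that work directly with CDK4, 5 of 13 tested were called (38.5%, beside 11.5% of all genes), 2 higher and 3 lower, and their median log2FC was -0.09. The higher ones were CCND1 and CDKN1A, given above. CCND1, the D-type cyclin that activates CDK4, rose from 338, 357 and 343 normalised counts in the control group to 544, 586 and 504 with Apatinib. The log2FC of CCND1 was 0.65 (standard error 0.116, edgeR FDR = 0.00847), and 10.3% of its annotated exon bases are shared with LTO1 on the opposite strand. RBL1, an RB relative known as p107, fell from 61.4, 65.0 and 48.1 to 25.8, 23.7 and 28.3 normalised counts (log2FC -1.16, edgeR FDR = 0.00304). RB1, the RB gene itself, was at 199, 205 and 149 in the control group and at 96.2, 117 and 122 normalised counts with Apatinib, a log2FC of -0.72 (edgeR FDR = 0.0145). The RB family genes RB1 and RBL1 were thus lower in every Apatinib replicate, while RBL2 had -0.19 and was not called.

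CDK6, the close relative that shares cyclin D with CDK4, fell from 315, 332 and 222 to 142, 193 and 182 normalised counts (log2FC -0.75, edgeR FDR = 0.0198). The log2 ratio of CDK4 to CDK6 within each sample, looked at after these values were seen, was -0.38, -1.26 and -1.08 in the Apatinib group, whereas the controls gave -2.02, -1.97 and -1.26. Apatinib replicate 2 and control replicate 3 met, and the ratio is given as a description only. Of this list 1 gene was called without control replicate 1 and likewise 1 without control replicate 2, and RBL1 was called in all 14 alternatives.

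**Figure D3:**
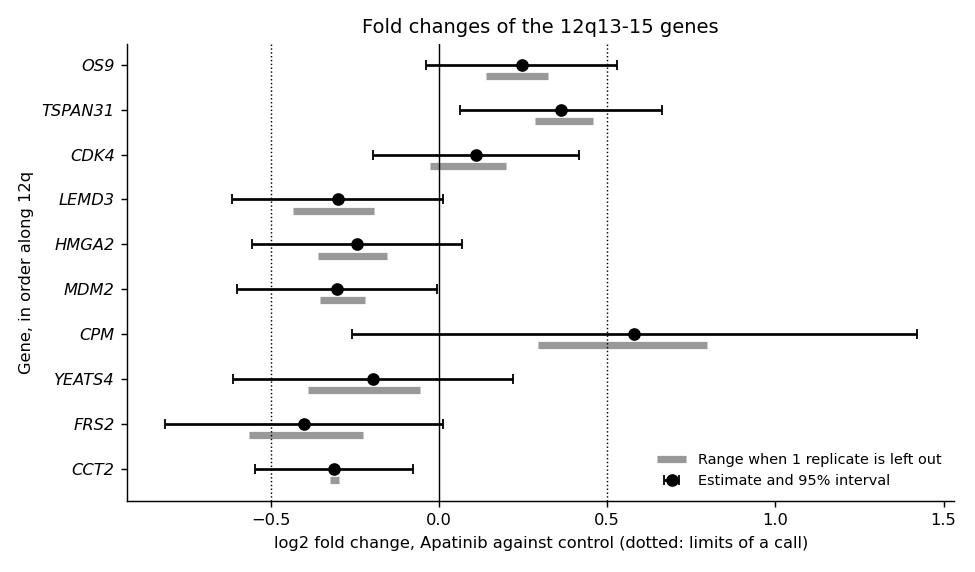
log2 fold changes of the 10 genes with their 95% intervals (black) and the range when each replicate is left out in turn (grey), with dotted lines at the limits of a call, -0.5 and 0.5. The intervals of TSPAN31, MDM2 and CCT2 exclude 0, CDK4 crosses 0 when a replicate is left out, and the interval of CPM is the widest.

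HMGA2, a chromatin protein of embryonic and fat-lineage cells, was at 35.7, 38.9 and 47.0 normalised counts with Apatinib and at 49.6, 52.1 and 42.3 in the control group. Apatinib replicate 3 lay above control replicate 3, so the groups overlapped. Its log2FC was -0.24 (standard error 0.143, 95% interval -0.56 to 0.07, edgeR FDR = 0.276). With Apatinib replicate 1 left out the value was -0.16. HMGA2 is the classic target of the let-7 microRNAs, so the seed and its matches are shown. The mature sequence, from RefSeq, has its seed (bases 2 to 8) in capitals, and the GENCODE 29 transcript of HMGA2 that carries the most matches, with 4473 bases of which 327 are coding, holds 1 match to CTACCTC before its coding part and 4 after it, and these 4 are shown with 14 bases before and 1 base after each.
hsa-let-7a-5p: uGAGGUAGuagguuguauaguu
HMGA2 match 2: ccaacgttcgatttCTACCTCa
HMGA2 match 3: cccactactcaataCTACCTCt
HMGA2 match 4: tgacttgcaaagacCTACCTCc
HMGA2 match 5: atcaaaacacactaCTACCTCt

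All 9 listed let-7 and miR-98 sequences have the same seed. The longest HMGA2 transcript, with 8094 bases, holds 1 match, and which transcript these cells express was not measured. The longest transcripts of CDK4, MDM2 and DICER1 hold 1, 1 and 4 matches. Mature microRNAs were not measured here. Of the 7 tested genes of the HMGA2 family and the let-7 axis, 1 was called (14.3%, beside 11.5% of all genes) and the median log2FC was -0.06. DICER1, the enzyme that cuts microRNA precursors, fell by 0.74 on the log2 scale (edgeR FDR = 0.0344), from 103, 109 and 69.9 to 49.4, 48.0 and 72.1 normalised counts. Control replicate 3 and Apatinib replicate 3 overlapped for DICER1, and its call was lost without control replicate 1. At an unadjusted p under 0.05, edgeR gave 4 of the 7, against 30.6% of all tested genes. Besides DICER1 these were IGF2BP3 (log2FC -0.37), IGF2BP2 (0.39) and the let-7 host transcript MIRLET7BHG (0.41). Only for IGF2BP2 was every Apatinib replicate above every control. The paralog HMGA1, at 143 FPKM against 7.94 for HMGA2 (means of all 6 replicates), had a log2FC of 0.12 (edgeR FDR = 0.654).

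FRS2, the adaptor that links FGF receptors to GRB2 and SOS1, had the lowest log2FC of the 10, -0.40 (standard error 0.189, 95% interval -0.81 to 0.01, edgeR FDR = 0.175). It was at 15.2, 21.1 and 24.8 normalised counts with Apatinib and at 29.9, 28.6 and 22.2 in the control group. Apatinib replicate 3 was above control replicate 3, so the groups overlapped. It was -0.23 without Apatinib replicate 1, where CCT2 (-0.32) and LEMD3 (-0.27) were lower, and -0.57 without Apatinib replicate 3. Of 8 tested receptors and adaptors 0 were called by edgeR (11.5% of all genes), 3 had an unadjusted p under 0.05 (30.6% of all genes), and the median log2FC was 0.11. PTPN11, the phosphatase SHP2 that docks on FRS2, had -0.48 (edgeR FDR = 0.0734), with overlapping groups. FRS3, a relative of FRS2, and FGFR4, an FGF receptor, had 0.50 and 0.60 (edgeR FDR = 0.0750 and 0.106). For both, every Apatinib replicate was above every control. FGFR1, another FGF receptor, had 0.22 (edgeR FDR = 0.311).

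YEATS4, which reads acetylated histones for the TIP60 and SRCAP complexes, was at 11.7, 18.5 and 13.9 normalised counts with Apatinib and at 19.3, 17.2 and 14.2 in the control group. Apatinib replicate 2 lay above control replicates 2 and 3. Its log2FC was -0.20 (standard error 0.190, edgeR FDR = 0.521). The value was -0.39 when Apatinib replicate 2 was left out and -0.06 when Apatinib replicate 1 was. Of the 19 other subunits, all tested, 2 were called, both lower (10.5%, beside 11.5% of all genes called and 5.48% called lower), and the median log2FC was -0.11. These were ING3, a histone-mark reader of the complex, with -1.02 (edgeR FDR = 0.0168), and MBTD1, another histone-reading subunit, with -0.73 (edgeR FDR = 0.0208), and neither was called without control replicate 1. The complexes' ATPases RUVBL1 and RUVBL2 had -0.07 and -0.09 and were not called.

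LEMD3, also called MAN1, tethers chromatin and SMAD proteins at the inner nuclear membrane. It was at 27.0, 24.0 and 33.1 normalised counts with Apatinib and at 35.3, 34.4 and 33.9 in the control group. Every Apatinib replicate was lower, though Apatinib replicate 3 came within 1 normalised count of control replicate 3, and the log2FC was -0.30 (standard error 0.143, edgeR FDR = 0.179). Without Apatinib replicate 2 the value was -0.19. Of 11 linked genes of the membrane and lamina, 3 were called, all lower (27.3%, beside 11.5% of all genes called and 5.48% called lower), with a median of -0.16. TMPO, a LEM-domain protein like LEMD3, fell by 0.62 on the log2 scale (edgeR FDR = 0.0134), LMNB1, a B-type lamin, by 0.78 (edgeR FDR = 0.0375), and LBR, the lamin B receptor, by 0.54 (edgeR FDR = 0.0428). Of the 11, 5 were above 0. Of the further LEM-domain genes, LEMD2 and EMD had 0.40 and 0.29 (edgeR FDR = 0.0603 and 0.153), with every Apatinib replicate above every control. ANKLE2, another of them, had -0.16, with every Apatinib replicate below every control, and was not called. LMNA, the A-type lamin, had 0.33 and was not called, and no gene of the list was called without control replicate 1.

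CCT2, a subunit of the chaperonin that folds actin and tubulin, had the lowest FDR of the 10, but a log2FC short of the limit of 0.5. It was at 176, 172 and 170 normalised counts with Apatinib and at 215, 215 and 213 in the control group, or 173 ± 3.11 against 215 ± 1.12 (SD, n = 3 each). The gap was far wider than the spread within either group, and the fold was 0.806. Its log2FC was -0.31 (standard error 0.107, 95% interval -0.55 to -0.08), and the edgeR FDR of 0.0760 and the DESeq2 FDR of 0.0554 both missed the limit. With single replicates left out the log2FC stayed between -0.32 and -0.30, and the FDR rose to between 0.0805 and 0.269.

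Of the 8 other subunits of the chaperonin, encoded outside 12q13-15 and all tested, 7 were below 0 and CCT6B was above it at 0.25. No test of a shared direction was made, the median log2FC was -0.32, and 1 was called, 12.5% beside 11.5% of all genes. CCT6A fell from 393, 406 and 382 to 263, 242 and 313 normalised counts (log2FC -0.53, edgeR FDR = 0.0241), a call that was lost without control replicate 1. Their summed level was 2258 to 2345 normalised counts in the control group and 1599 to 1962 with Apatinib, without overlap.

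OS9, which hands misfolded glycoproteins to the SEL1L ligase complex, was at 205, 172 and 160 normalised counts with Apatinib and at 143, 147 and 164 in the control group. Apatinib replicate 3 fell below control replicate 3. An antisense gene shares 13.5% of the annotated exon bases of OS9. Its log2FC was 0.25 (standard error 0.129, 95% interval -0.04 to 0.53, edgeR FDR = 0.224), and 0.14 without Apatinib replicate 1. Of 13 tested genes of ER-associated degradation 11 were below 0, with a median of -0.10, and 3 were called (23.1%, beside 11.5% of all genes). HERPUD1, a stress-induced scaffold of the pathway, rose with a log2FC of 0.64 (edgeR FDR = 0.0188), and EDEM3, a mannosidase, fell by 0.84 on the log2 scale (edgeR FDR = 0.0194). DERL3, with -0.95 (edgeR FDR = 0.0421), is uncertain, since 77.0% of its annotated exon bases are shared with SMARCB1 on the opposite strand. No gene of this list was called without control replicate 1.

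CPM had a log2FC of 0.58, but with a standard error of 0.384 and a 95% interval from -0.26 to 1.42 (edgeR FDR = 0.333). It was at 1.57, 0.847 and 1.03 normalised counts with Apatinib and at 0.520, 0.990 and 0.779 in the control group, so the groups overlapped. Without Apatinib replicate 1 the value was 0.29, without control replicate 1 it was 0.37, and without control replicate 2 it was 0.80. No change of this gene was detected. CPM overlaps MDM2 in part at their 3′ ends on opposite strands, with 1.77% of its annotated exon bases shared.

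**Figure D4:**
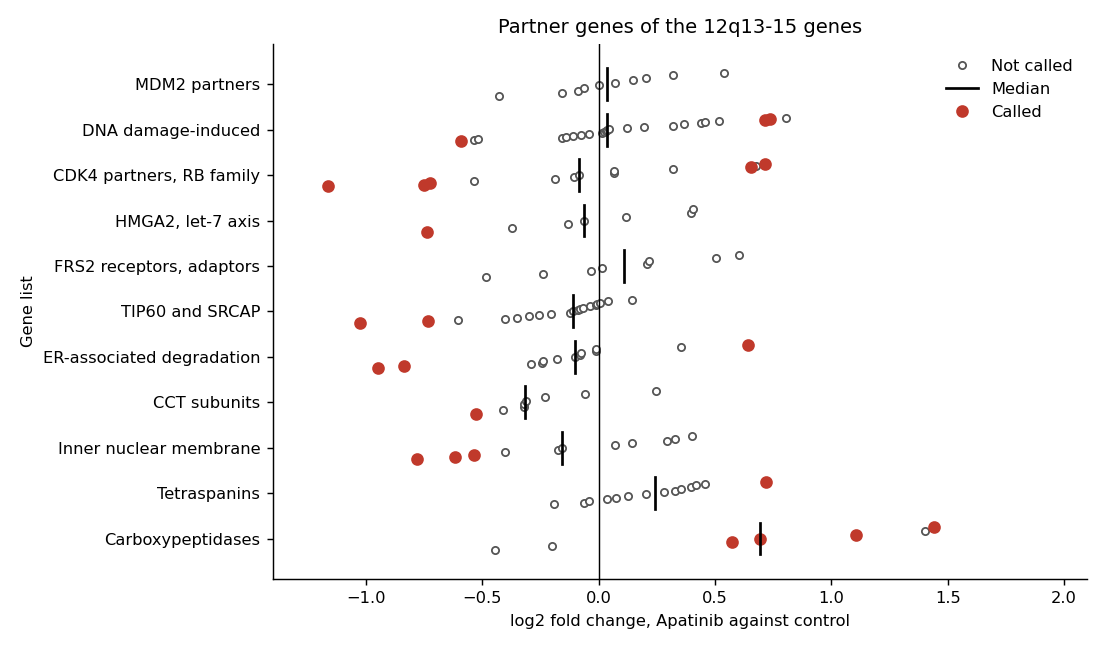
log2 fold changes of the tested partner genes of each of the 10 genes, 1 row per list, with called genes filled, other genes open and a bar at the median. The CDK4 row has called genes on both sides of 0, the CCT row lies mostly left of 0 and the carboxypeptidase row mostly right of it.

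Over all 11 lists, 144 partner genes were named once each, 131 were tested and 22 were called (16.8%), 9 higher and 13 lower, beside 11.5% of all genes. The number was 4 (3 higher, 1 lower) without control replicate 1, likewise 4 (3 higher, 1 lower) without control replicate 2, and 10 (5 higher, 5 lower) without Apatinib replicate 1, so the excess of lower calls turned or was lost. The median log2FC over the 131 was -0.04.

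The 10 genes were then set among their neighbours. Between OS9 and CCT2, GENCODE 29 places 46 other protein-coding genes, of which 35 were tested, and 7 had 0 counts in every replicate. Among those with 0 counts, RP11-571M6.15 shares 85.1% of its annotated exon bases with TSFM on the same strand. A second TMBIM4 entry shares 67.5% with the other TMBIM4 entry, also on the same strand. How reads in such shared bases were counted is not known. Of the 35, 4 were called, 11.4% beside 11.5% of all genes. All 4 were lower (5.48% of all genes were called lower), and the median log2FC was -0.14. AVIL, an actin-severing protein, fell from 6.58, 6.71 and 5.36 to 2.09, 3.16 and 2.75 normalised counts (log2FC -1.21, edgeR FDR = 0.00914). AVIL shares 5.15% of its annotated exon bases with TSFM on the opposite strand.

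MDM1, a microtubule-binding centriole protein, fell by 0.63 on the log2 scale (edgeR FDR = 0.0277), and CPSF6, a subunit of the mRNA cleavage factor, by 0.54 (edgeR FDR = 0.0428). TBK1, a kinase of innate immune signalling, was at 19.4, 19.4 and 26.6 normalised counts with Apatinib and at 36.2, 40.9 and 25.5 in the control group, and fell by 0.65 (edgeR FDR = 0.0474) although Apatinib replicate 3 lay above control replicate 3. The count of called neighbours was 1 without control replicate 1 (AVIL) and 0 without control replicate 2. It was 2 without either Apatinib replicate 1 or Apatinib replicate 2, and 7 without control replicate 3. Called neighbours that were higher appeared in other fits, 1 of 7 with DESeq2, 3 of 8 with no filter, 1 of 5 with at least 10 counts in every replicate and 1 of 2 without Apatinib replicate 1.

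By position, looked at after the values were known and given without a test, OS9, TSPAN31 and CDK4, the 3 nearest the centromere, had values of 0.25, 0.36 and 0.11. The intervals of OS9 and CDK4 included 0, and CDK4 was at -0.03 without Apatinib replicate 1. Of the 7 genes from LEMD3 onward, CPM was above 0 and the other 6 were below, and none of the 10 was called. Neighbours between OS9 and LEMD3 had 9 values above 0 and 14 below, with a median of -0.09. Neighbours between LEMD3 and CCT2 had 2 above and 10 below, with a median of -0.25. AVIL, the lowest, lies among the first of these, so the genes near CDK4 did not share 1 direction.

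**Figure D5:**
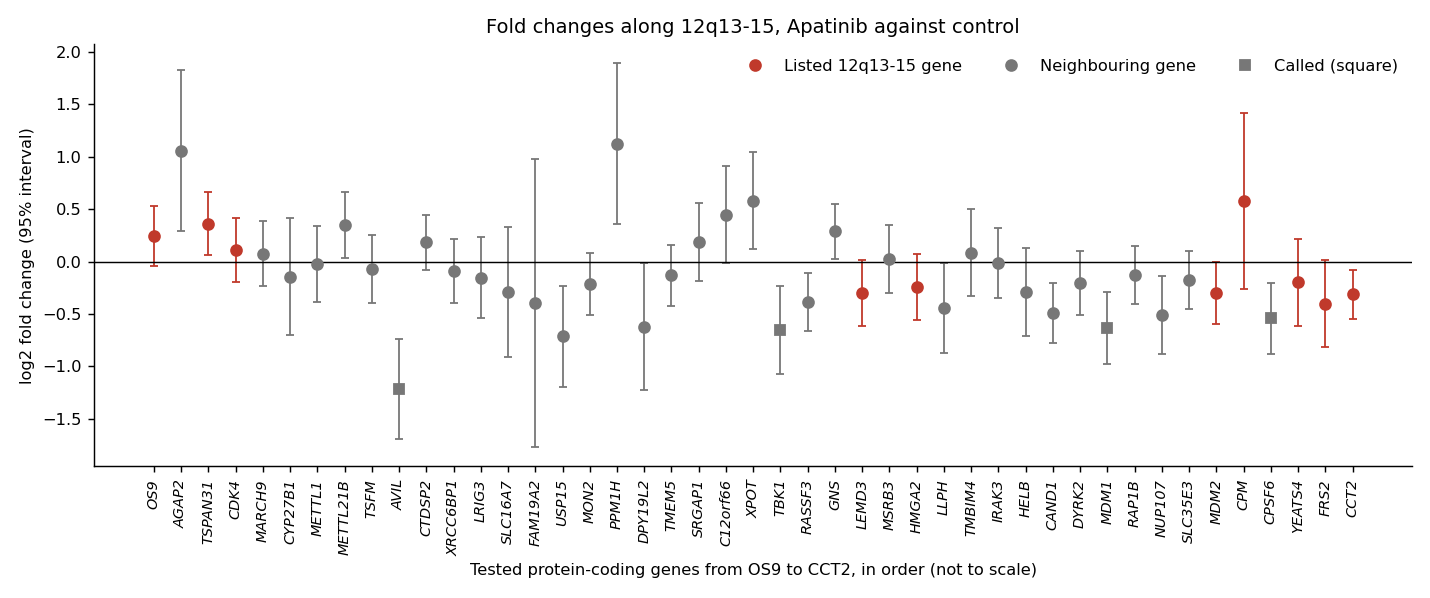
log2 fold changes with 95% intervals of the tested protein-coding genes from OS9 to CCT2 in their order on 12q (not to scale), the 10 listed genes in red, neighbours in grey and called genes as squares. The 4 squares are neighbours (AVIL, TBK1, MDM1 and CPSF6), and all lie below 0 in this fit, whereas other fits also called neighbours above 0.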

How the data were processed

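RNA sequencing of 3 Apatinib and 3 control replicates of SW872 cells was used. The authors deposited raw counts of each gene (unnormalized whole numbers) and, for each replicate, FPKM values, which divide fragments by transcript length and by the mapped total. The submitters' processing notes name CASAVA, STAR 2.7.1a and the build hg19; the counting program, the annotation and the use of strand are not given in the sources used here. The FPKM values of Apatinib replicate 1 came with a further column headed as a control, which was not used (1 column).

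Counts were tested in R 4.3.3 with edgeR 4.0.16 (filterByExpr, TMM, quasi-likelihood F test, Benjamini-Hochberg over 16290 genes). The methods of the study name DESeq2, which was run as an alternative (1.42.0), as were RLE factors, no filter, at least 10 counts in every replicate, a replicate block, controls 1 and 2 summed, no limit on the fold change, limma 3.58.1 with FPKM on the log2 scale (pseudocount 1 or 0.1, mean of at least 0.5 FPKM), and each replicate left out. The scripts were tested on simulated data. Symbols, order and overlaps came from GENCODE 29 (GRCh38), joined by Ensembl identifier, so no positions in hg19 are given.

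The 10 genes and the lists were chosen with earlier results of these data known. Named were the 10 genes, up to 4 called genes of each list by p value (or the smallest p where none was called), and the 3 genes most like each of MDM2 and CDK4; other genes were named for their role after their values were seen. No list was tested as a set, and 1 gene counted in the MDM2 list is not reported here. The deviations of same-numbered replicates from their group means correlated at -0.259, 0.0808 and -0.220. With 3 replicates per group such deviations constrain each other, so whether samples were paired cannot be told from them.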

Additional observations from a re-analysis of the deposited data

How the results depend on the processing

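The count of called genes among the 10 was 0 in all 15 alternatives, although CPM had no FDR with DESeq2, the stricter filter or limma. The signs of 9 of the 10 log2 fold changes held in every alternative that could be fitted, 14 for each gene and 11 for CPM, which lay under the stricter filter and the FPKM minimum. CDK4 ranged from -0.03 to 0.20 with one replicate left out, and the lower value, -0.026 without Apatinib replicate 1, turned its sign. The 1866 called genes were 292 (207 higher, 85 lower) with controls 1 and 2 summed as 1 sample, 796 (556 higher, 240 lower) and 810 (578 higher, 232 lower) with limma on log2(FPKM + 1) and log2(FPKM + 0.1), and 275 to 2594 with one replicate left out. The 4 called neighbours were 7 with DESeq2, 8 with no filter, 1 with the controls summed and 1 with either limma fit, and 0 to 7 with one replicate left out. The 22 called partner genes were 4 (3 higher, 1 lower) with the controls summed, 10 (6 higher, 4 lower) with either limma fit, and 4 to 25 with one replicate left out. Fewer samples enter the fits that sum or leave out replicates, yet the number of called genes moved both ways among them. It rose to 2594 and 2030 on dropping replicate 3 of the control or of the Apatinib group. Dropping controls 1 or 2 lowered it to 275 or 300, and dropping Apatinib replicates 1 or 2 to 795 or 1493. The cause of these shifts was not tested.

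Replicate numbers are shared by both groups, and the fit with the replicate block gave 0 of the 10 genes, 9 neighbours (3 higher, 6 lower), 28 partner genes and 2215 genes overall. No sample correlated best with its own number, so the numbers are no evidence of pairing. With 3 replicates per group the narrowest 95% interval of the 10 genes was that of CCT2 (-0.55 to -0.08) and the widest that of CPM (-0.26 to 1.42).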

Other observations

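The families of TSPAN31 and CPM were also read. Of 14 tetraspanins besides TSPAN31, all tested, 11 were above 0 (median log2FC 0.24), and 1 was called (7.14%, beside 11.5% of all genes). TSPAN15, a partner of the protease ADAM10, rose from 9.81, 12.8 and 12.9 to 22.5, 18.7 and 17.5 normalised counts (log2FC 0.72, edgeR FDR = 0.0218), but was not called without control replicate 1. CD9 and CD81, the widely expressed tetraspanins, had 0.46 and 0.28 and were not called.

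Of 7 tested carboxypeptidases besides CPM, 4 were called, all higher (57.1%, beside 11.5% of all genes called and 5.97% called higher), with a median log2FC of 0.69. CPA4 rose from 92.6, 115 and 80.0 to 286, 186 and 307 normalised counts (log2FC 1.44, edgeR FDR = 0.00358), and CPE, which trims prohormones, from 24.5, 27.6 and 24.2 to 43.0, 74.6 and 46.5 (log2FC 1.10, edgeR FDR = 0.00845). CPA4 and CPE were called in all 14 alternatives. CPQ and CPXM1 rose with 0.69 and 0.57 (edgeR FDR = 0.0456 and 0.0323) and were not called without control replicate 1, where 3 genes of the list were called.

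Likeness of pattern was measured as the root mean square difference of centred log2 normalised counts over the 6 samples, among 10768 genes with a mean of at least 3 on that log2 scale. The genes nearest to MDM2 were RFX7, CNOT2 and COA5, at 0.0345, 0.0401 and 0.0408, with 365 genes within 0.1. The genes nearest to CDK4 were COTL1, COPG1 and LSMD1, at 0.0139, 0.0206 and 0.0225, with 974 genes within 0.1. None of these 6 genes passed the edgeR limit, with FDR values from 0.0975 to 0.661. They were picked for profiles close to those of MDM2 and CDK4, which were not called, so this is no separate result.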
